A study of Mus musculus with 6 samples.

Results

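The transcripts described here come from 10 mouse genes best known from the embryo at the 2-cell stage. They are AF067061 and Tcstv3 of the Tcstv group, Gm5662, Tdpoz1, Tdpoz2 and Tdpoz3, Usp17lb, Usp17lc and Usp17ld, and Tmem92. They are 10 of 19938 genes that had a probe set with exactly 1 gene symbol, and where a gene had several such probe sets the brightest on average was used. The genes were chosen with their difference between vitamin C and untreated cells known, so those differences are given as a description. The 3 vitamin C arrays held RNA of Oct4-GiP mouse embryonic stem (ES) cells kept for 72 hours with L-ascorbic acid 2-phosphate at 200 μg/ml, and the 3 untreated arrays held RNA of the same cells without it. Both groups grew on gelatin in N2B27 medium with LIF (1000 U/ml), the MEK inhibitor PD0325901 (1 μM) and the GSK3β inhibitor CHIR99021 (3 μM), which hold ES cells in a naive state, and both carried the Oct4-GiP reporter. The submitters call the arrays biological triplicates. Whether the cells derive from 1 clone is not given in the sources used here.

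Values are log2 signals of one-colour Affymetrix arrays, normalized by the authors with RMA, and array medians lay between 5.52 and 5.60. Arrays of one group correlated at 0.995 to 0.996 across genes, and arrays of different groups at 0.989 to 0.990. Of 8 ES-cell markers 2 rose, Nanog by 0.29 and Zfp42 by 0.30 on the log2 scale (limma adjusted p = 0.0168 and 0.0214), and 6 did not pass. That is 25% with an adjusted p under 0.05, against 13.2% of all genes (5.75% higher and 7.40% lower). Pou5f1, which encodes Oct4 and did not pass (adjusted p = 0.235), lay at 11.16, 11.18 and 11.09 in vitamin C cells and at 11.24, 11.26 and 11.28 in untreated cells. The summed linear signal of the 8 was 14865 to 14960 in vitamin C cells, above the highest untreated sum of 14033. Such a sum is weighted toward the brightest of the 8, so it does not show that they rose as a set.

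In the mouse embryo the genome is first transcribed in earnest at the 2-cell stage, when a set of genes is switched on for a short time. A minority of cells in ES cultures passes in and out of a 2-cell-like state in which the same genes are transcribed. The homeobox factor Dux and the zinc finger proteins of the Zscan4 group are its best known drivers and markers. Many of these genes stand in clusters of recent copies. Tcstv genes encode small proteins named for the 2-cell stage, Tdpoz genes encode proteins with a TRAF domain and a BTB/POZ domain, and Usp17l genes encode deubiquitinating enzymes that were first described as cytokine-inducible in blood cells. In RefSeq's gene table (assembly GRCm38.p6), AF067061 and Tcstv3 lie on chromosome 13 with 1 coding gene, BC147527, between them. The 3 Tdpoz genes lie in 1 cluster on chromosome 3 with Tdpoz4 and Tdpoz5. The Usp17l genes lie among olfactory receptor genes on chromosome 7, with Usp17lb next to Usp17la and Usp17le. Gm5662 lies on chromosome 12, and Tmem92, which encodes a transmembrane protein, on chromosome 11.

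RefSeq promoters (GRCm38.p6) were at hand for 5 of the 10 genes. The 250 bases before the annotated start are shown because they show how closely the copies resemble each other and what AF067061 and Tdpoz1 share. Capitals mark the TATA-like motif TATANAAG, where N is any base.
AF067061, chr13:120262845-120263094, plus strand: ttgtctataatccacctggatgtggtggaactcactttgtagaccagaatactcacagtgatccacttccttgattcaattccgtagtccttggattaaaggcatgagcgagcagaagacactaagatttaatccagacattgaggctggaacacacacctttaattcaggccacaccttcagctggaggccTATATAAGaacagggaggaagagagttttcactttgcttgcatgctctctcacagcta
Tdpoz1, chr3:93676284-93676533, minus strand: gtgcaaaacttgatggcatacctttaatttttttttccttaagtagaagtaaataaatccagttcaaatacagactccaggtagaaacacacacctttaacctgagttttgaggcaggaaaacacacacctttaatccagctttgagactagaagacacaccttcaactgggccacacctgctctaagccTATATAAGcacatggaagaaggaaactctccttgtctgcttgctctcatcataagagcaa
Usp17lb, chr7:104842584-104842833, minus strand: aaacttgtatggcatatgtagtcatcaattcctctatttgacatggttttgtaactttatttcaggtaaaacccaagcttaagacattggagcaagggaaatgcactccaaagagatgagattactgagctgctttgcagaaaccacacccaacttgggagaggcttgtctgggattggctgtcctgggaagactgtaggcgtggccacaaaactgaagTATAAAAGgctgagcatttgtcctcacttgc
Usp17lc, chr7:103416446-103416695, plus strand: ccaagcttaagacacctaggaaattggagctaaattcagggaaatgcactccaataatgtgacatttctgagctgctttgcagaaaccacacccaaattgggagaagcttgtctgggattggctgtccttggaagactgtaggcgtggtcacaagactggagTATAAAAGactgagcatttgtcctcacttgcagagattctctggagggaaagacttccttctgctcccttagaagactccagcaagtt
Usp17ld, chr7:103252506-103252755, minus strand: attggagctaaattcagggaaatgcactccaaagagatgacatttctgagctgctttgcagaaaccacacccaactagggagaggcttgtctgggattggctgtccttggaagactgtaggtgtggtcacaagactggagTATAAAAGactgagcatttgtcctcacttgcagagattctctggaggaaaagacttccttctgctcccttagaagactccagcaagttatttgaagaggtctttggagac

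The motif was found on the gene's strand of all 5 promoters, once in each, and on the other strand of none. Among 32851 mouse promoters of the same length, 3.24% held it on either strand and 2.12% on the gene's strand. It was chosen after the sequences were read. It began 58 bases before the start in AF067061 and 60 bases before it in Tdpoz1, where the letters were TATATAAG. In the 3 Usp17l promoters the letters were TATAAAAG, at 31 (Usp17lb), 88 (Usp17lc) and 110 bases (Usp17ld) before starts that the annotation places differently. The Usp17l promoters were 92.1% to 96.1% identical over 165 to 228 aligned bases. AF067061 and Tdpoz1, which belong to different families on different chromosomes, were 68.1% identical over 232 aligned bases and shared the word aacacacacctttaat of 16 bases. That word occurred in 5 of the 32851 promoters, and it too was picked from these sequences. All 5 promoters were at or below the lower quartile (2) in CpG, the dinucleotide that DNA methylation acts on. AF067061 had 2 CpGs, Usp17lb and Usp17lc had 1 each and Tdpoz1 and Usp17ld had 0, where the median promoter had 6.

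The genes did not move as one set. AF067061, Tcstv3, Gm5662, Tdpoz3 and Tmem92 were lower with vitamin C, by 1.67-fold to 2.01-fold, and the 3 Usp17l genes, Tdpoz1 and Tdpoz2 had higher means, by 1.18-fold to 1.33-fold. In the fit of limma over all genes, 5 of the 10 were called lower, 2 higher and 3 were not called (adjusted p under 0.05), where 13.2% of all genes were called. Over all genes 1147 were higher (5.75%) and 1476 lower (7.40%), or 866 and 1830 with each array centred on its median. The arrays of the groups did not overlap for 9 of the 10 genes, where 35.0% of all genes did not overlap. Since these differences chose the genes, nothing is read from either count. The number called was 4 without vitamin C replicate 1 or 2, and 5 in a fit over all 35557 probe sets. The median log2 difference of the 10 genes was -0.25, and that of all genes 0.01. In bulk RNA, fewer cells of a 2-cell-like kind and less RNA per such cell cannot be told apart.

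**Figure D1:**
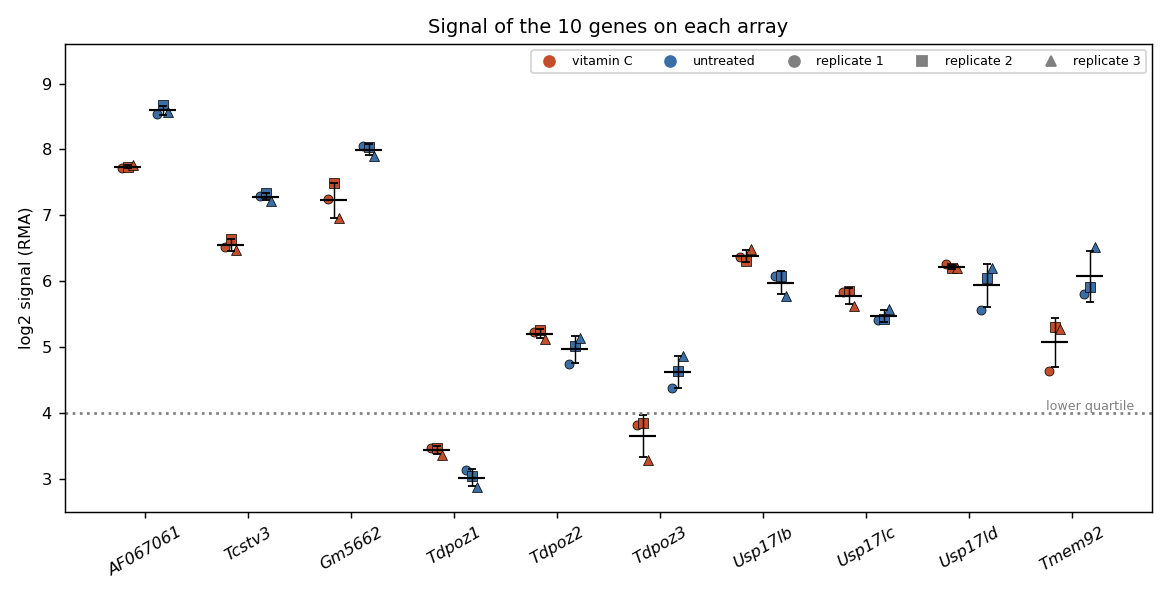
Log2 signal (y axis) of the 10 genes on each array, with vitamin C arrays left of untreated arrays for each gene. Bars are the mean and SD of 3 arrays, point shapes are replicate numbers, and the dotted line is the lowest lower quartile of an array (3.99). AF067061, Tcstv3, Gm5662, Tdpoz3 and Tmem92 lie lower with vitamin C, and the Usp17l genes a little higher.

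The Tcstv pair gave the tightest values. AF067061 measured 7.72, 7.73 and 7.76 in vitamin C cells, against 8.54, 8.67 and 8.57 in untreated cells. The vitamin C arrays spanned 0.04 and all stood well below the untreated ones, a log2 difference of -0.86 ± 0.06 (SE). Tcstv3 measured 6.51, 6.64 and 6.47 in vitamin C cells, against 7.29, 7.34 and 7.22 in untreated cells, a difference of -0.74 ± 0.07 (SE). Every vitamin C array was below every untreated array here too. BC147527, the coding gene between them, had 5.93, 5.90 and 5.97 in vitamin C cells and 6.88, 6.27 and 5.84 in untreated cells, so its groups overlapped (-0.39 ± 0.23 SE, limma adjusted p = 0.301). AF067063, another coding gene of this series of names, had 4.45, 4.64 and 4.77 in vitamin C cells and 4.45, 4.49 and 4.50 in untreated cells (0.14 ± 0.09 SE, adjusted p = 0.334). Its mean difference had the opposite sign to that of the pair, and its groups overlapped.

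Gm5662 is a predicted gene that shares 4 probe sets with Eif1a, the gene of a translation initiation factor. Its own probe set measured 7.24, 7.49 and 6.96 in vitamin C cells, against 8.06, 8.03 and 7.90 in untreated cells. All vitamin C arrays were lower, with replicate 3 the lowest (-0.77 ± 0.13 SE). None of the 4 probe sets that name Gm5662, Eif1a and 6 further copies passed over all probe sets (limma adjusted p from 0.0544 to 0.147). They differed by -0.33 to -0.27, the same direction with a smaller size. Eif1a itself is a broadly transcribed gene, and how much of that signal comes from each copy was not tested. Another probe set names only Gm4027 and BB287469, which are among the 6 further copies. It differed by -0.46 ± 0.22 (SE), with overlapping groups (limma over all probe sets, adjusted p = 0.292).

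Tmem92 had the widest spread of the 10 and, with Tdpoz3, a difference of about 1 log2 unit. It measured 4.64, 5.30 and 5.27 in vitamin C cells, against 5.80, 5.91 and 6.52 in untreated cells. The groups did not overlap (-1.01 ± 0.23 SE). The nearest arrays of the groups were 0.50 apart, less than the range within the vitamin C arrays (0.66) or the untreated arrays (0.72). Without single arrays its difference ranged from -1.14 to -0.78. Its call (limma adjusted p = 0.0314) was lost in the fit over all probe sets (0.0909).

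The Tdpoz genes went different ways. Tdpoz3 measured 3.81, 3.85 and 3.28 in vitamin C cells, against 4.38, 4.63 and 4.87 in untreated cells (-0.98 ± 0.18 SE). All 3 vitamin C values lay under 3.99, the lowest lower quartile of an array, so the size of this difference rests on dim values. Tdpoz1 measured 3.47, 3.46 and 3.36 in vitamin C cells, against 3.13, 3.04 and 2.88 in untreated cells (0.41 ± 0.08 SE). Its groups did not overlap, yet all 6 arrays lay under that quartile. Tdpoz2 measured 5.22, 5.26 and 5.13 in vitamin C cells, against 4.74, 5.02 and 5.13 in untreated cells, and these groups overlapped (0.24 ± 0.11 SE, 95% interval from -0.01 to 0.49). The dimmer probe set of Tdpoz2 gave 3.89, 4.09 and 3.66 with vitamin C and 3.60, 3.76 and 4.57 without, a difference of -0.10 (95% interval from -0.77 to 0.58), so the 2 probe sets of this gene had opposite signs. Probe sets that name Tdpoz1, 5, 7 and 9 together came to 2 distinct sets of values, with differences of -0.13 and -0.02 and overlapping groups. The groups also overlapped for a probe set of Tdpoz8 and for a probe set of Tdpoz4 and Tdpoz8. These differed by 0.02 and 0.05 (limma over all probe sets, adjusted p = 0.977 and 0.866). Cross-hybridisation between close copies can blur them, which leaves their separate values uncertain.

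All Usp17l probe sets had higher means with vitamin C. Usp17lb measured 6.37, 6.31 and 6.49 in vitamin C cells, against 6.08, 6.08 and 5.77 in untreated cells (0.41 ± 0.10 SE). The call of Usp17lb (limma adjusted p = 0.0376) was lost in the fit over all probe sets (0.0910). Usp17lc measured 5.84, 5.84 and 5.63 in vitamin C cells, against 5.42, 5.43 and 5.57 in untreated cells (0.30 ± 0.08 SE, not called, 95% interval from 0.10 to 0.50). Neither pair of groups overlapped, although for Usp17lc the nearest arrays were 0.06 apart. Usp17ld measured 6.25, 6.20 and 6.20 in vitamin C cells, against 5.57, 6.05 and 6.20 in untreated cells (0.28 ± 0.15 SE, not called, 95% interval from -0.07 to 0.63). Its groups were separated only in the third decimal, and most of its mean difference came from untreated replicate 1, without which the difference was 0.10. Usp17la, a close copy outside the 10 genes, measured 6.97, 7.27 and 7.34 in vitamin C cells and 6.94, 6.42 and 6.49 in untreated cells (0.58 ± 0.15 SE, limma adjusted p = 0.0489). That call did not hold without vitamin C replicate 1, 2 or 3 or without untreated replicate 2 or 3 (adjusted p from 0.0549 to 0.137), nor with arrays centred on their median (0.0546), with array weights (0.0501) or over all probe sets (0.121). A probe set that names Usp17la, c, d and e gave 7.44, 7.30 and 7.35 with vitamin C and 6.94, 6.74 and 6.72 without, a 1.47-fold difference (0.56 ± 0.08 SE). These 5 probe sets measure close copies and are not independent of each other.

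**Figure D2:**
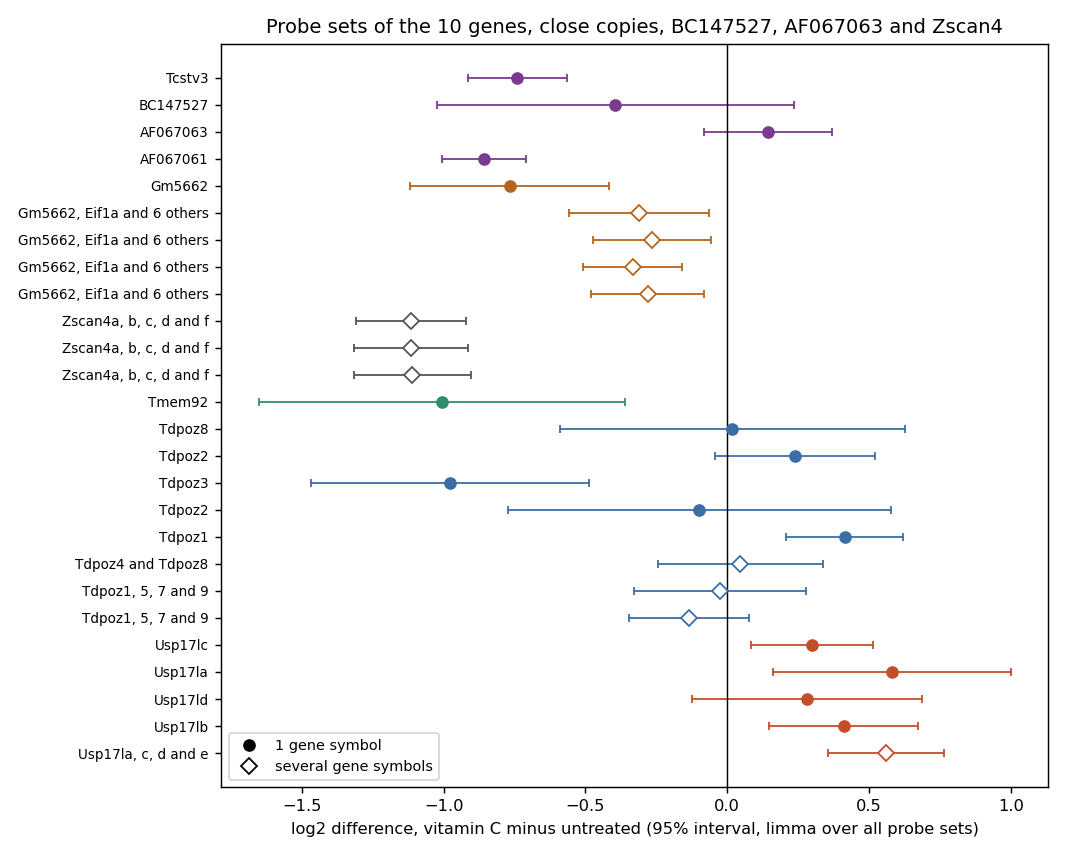
Log2 difference (x axis), vitamin C minus untreated, of each distinct probe set that names any of the 10 genes, another Tdpoz or Usp17l gene, BC147527, AF067063 or Zscan4. Bars are 95% intervals from limma fitted over all probe sets, filled circles name 1 gene and open diamonds several. The Zscan4 probe sets lie near -1.1, the Usp17l probe sets to the right of 0, and the Tdpoz probe sets on both sides.

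The deviation of each array from its own group mean does not contain the group difference, which was known when the genes were chosen. Calls and overlap also depend on the spread within groups, and close copies can share signal. The counts that follow are therefore a description. Vitamin C replicate 3 was the lowest of its group for 7 of the 10 genes, where it was the lowest for 31.2% of all genes. Vitamin C replicate 2 was the highest for 6 of them, where it was so for 33.6% of all genes. In the untreated group replicate 1 was the lowest for 6 of the 10, against 34.4% of all genes, with Usp17ld 0.37, Tmem92 0.28, Tdpoz3 0.25 and Tdpoz2 0.23 below their group mean. Untreated replicate 3 had the same 4 genes at their highest, by 0.17 to 0.44 above the mean, but was the lowest for Tcstv3, Gm5662, Tdpoz1 and Usp17lb. The genes that were lower with vitamin C therefore did not all share an order of arrays within a group. The median SD within groups was 0.15 for the 10 genes and 0.11 for all genes, and it was smallest for AF067061 (0.05) and largest for Tmem92 (0.38).

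**Figure D3:**
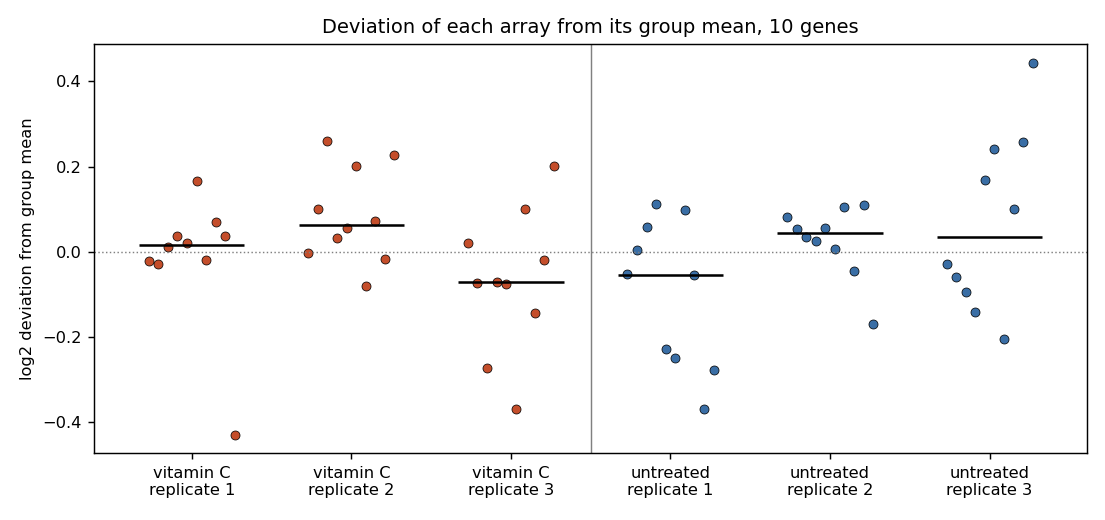
Log2 deviation of each array from the mean of its group (y axis) for the 10 genes, with vitamin C arrays on the left and untreated arrays on the right. Points run from AF067061 to Tmem92 in the order of the plot of signals, and black lines are medians over the 10 genes. The median is -0.07 for vitamin C replicate 3 and -0.05 for untreated replicate 1.

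Other 2-cell-stage genes also went both ways. Of 58 listed genes outside the 10, 18 were measured by a probe set of their own, and 3 rose, 3 fell and 12 did not pass, with a median log2 difference of -0.05, against 0.01 over all genes. That is 33.3% called, where 13.2% of all genes were called. The list was chosen with earlier results of these data known. Nothing is therefore read from its share called, here or for its shared probe sets. Obox6, an oocyte homeobox gene, fell to 4.15, 4.14 and 5.03 in vitamin C cells, against 5.15, 5.46 and 5.44 in untreated cells (-0.91 ± 0.23 SE, limma adjusted p = 0.0437), a call not held without vitamin C replicate 1 or 2 or without untreated replicate 1, 2 or 3 (0.0726 to 0.132). It was also lost over all probe sets (0.116) and with the mean of its probe sets, where the difference was -0.42 (0.0598). Klf17, a Krüppel-like factor gene, fell by 0.46 (limma adjusted p = 0.00778), and Hsf2bp, the gene of a meiotic recombination factor that binds HSF2, by 0.43 (0.00605). Besides Usp17la, those that rose were Ddit4l, an inhibitor of mTORC1 signalling (0.70, adjusted p = 0.00163), and Calcoco2, an autophagy receptor (0.50, adjusted p = 0.00481). Both act outside the early embryo as well. Among those that did not pass were Zfp352, a zinc finger gene of the 2-cell embryo (0.27 ± 0.16 SE, adjusted p = 0.311), Zfp353-ps (-0.21, adjusted p = 0.384) and Pramel17 (-0.14, adjusted p = 0.490).

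The best known 2-cell genes are present in several near-identical copies, and their probe sets name more than 1 gene. The listed 2-cell-stage genes had 32 such probe sets that name none of the 10 genes, with 28 distinct sets of values in 12 groups of copies. In a limma fit over all 35557 probe sets, which called 5.95% of them (2.94% higher and 3.01% lower), 7 of the 28 fell, 4 rose and 17 did not pass. The 3 probe sets of Zscan4a, b, c, d and f, which encode zinc finger proteins of telomere maintenance, were 2.16-fold to 2.17-fold lower with vitamin C. The first of them measured 7.96, 7.97 and 7.77 in vitamin C cells, against 8.94, 9.05 and 9.06 in untreated cells. The vitamin C arrays stood apart from the untreated ones by almost a whole log2 unit (limma adjusted p from 0.00270 to 0.00311 for the 3 probe sets). Replicate 3 was the lowest vitamin C array here. It was so too for 7 of the 10 genes, some of them with higher means in vitamin C cells, but it was the highest for AF067061. The 3 measure the same copies and count as 1 observation.

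The copies Gm4340 and Gm6763, transcribed with Zscan4 at the 2-cell stage, were lower in both of their probe sets, by 1.08 and 0.87 on the log2 scale (limma adjusted p = 0.00185 and 0.00798). The dimmer of them measured 7.24, 7.27 and 7.06 in vitamin C cells, against 8.17, 8.03 and 7.98 in untreated cells. Pramel16 and its copies were lower too (-1.12 and -0.88, limma adjusted p = 0.0375 and 0.0255), but without single arrays the adjusted p reached 0.125 and 0.0864. With any single array left out, 5 or 6 of the 11 calls held, and Zscan4 and Gm4340 were among them in every case. The copies of Sp110, a nuclear body gene also induced by interferon, supplied the 4 that rose (0.50 to 0.83, limma adjusted p from 0.0326 to 0.0491). None of these 4 calls held with 1 array left out, except 1 without untreated replicate 3, and 2 held with each array centred on its median. Duxf3, the Dux gene, shares its 3 probe sets with Gm9919 and measured 5.62 to 6.07 in vitamin C cells and 5.88 to 6.25 in untreated cells. These ranges overlapped, and the differences of -0.18 to -0.16 did not pass (adjusted p from 0.532 to 0.561).

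**Figure D4:**
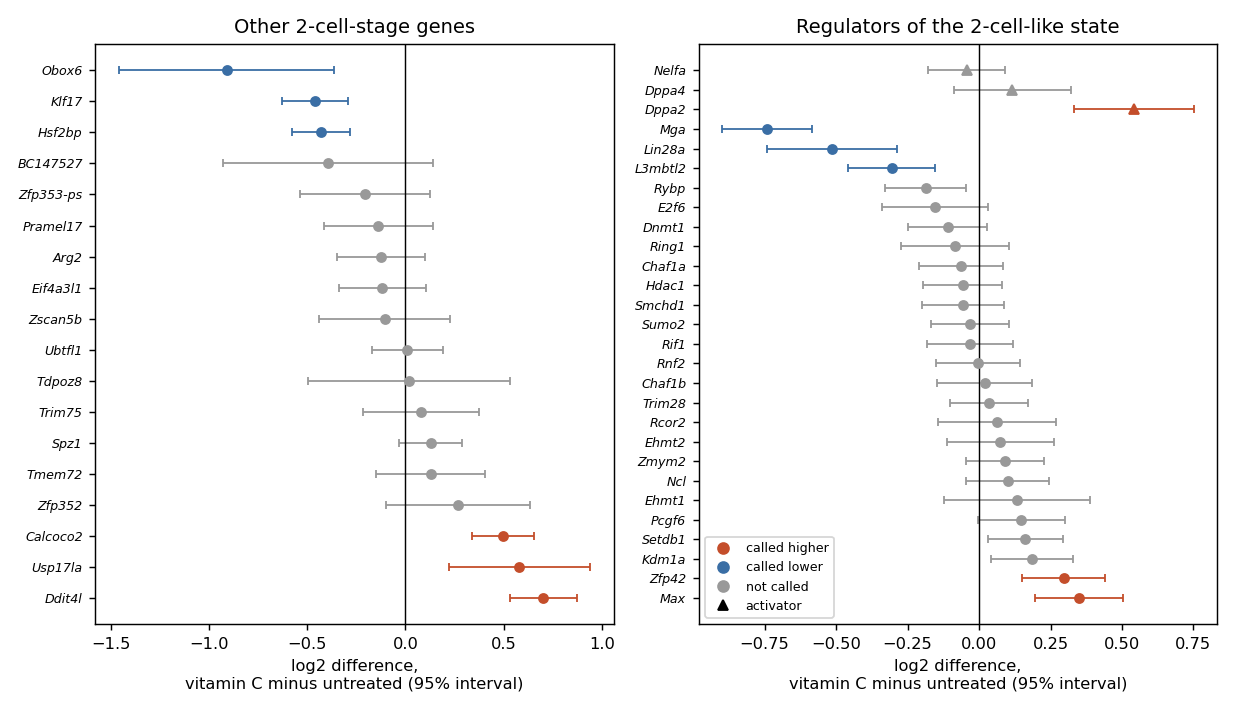
Log2 difference (x axis), vitamin C minus untreated, of other 2-cell-stage genes with a probe set of their own (left) and of regulators of the 2-cell-like state (right). Bars are 95% intervals from limma over 19938 genes, and triangles are activators. Obox6, Klf17 and Hsf2bp lie lower on the left, and Mga, Lin28a and L3mbtl2 on the right.

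Genes known in mouse ES cells to switch the 2-cell programme on or hold it down were compared next. Of 32 listed, 28 were measured, and 3 rose, 3 fell and 22 did not pass (21.4% called, against 13.2% of all genes). This list too was chosen with earlier results of these data known, so nothing is read from that share. Among the activators, Dppa2, which binds and opens the Dux and Zscan4 loci, rose to 9.91, 9.87 and 9.79 in vitamin C cells, against 9.14, 9.44 and 9.36 in untreated cells (0.54 ± 0.09 SE, limma adjusted p = 0.00945). Its partner Dppa4 differed by 0.12 (adjusted p = 0.429) and Nelfa by -0.04 (adjusted p = 0.677). In the same cultures Zscan4, Tcstv3 and AF067061 were lower, Usp17lb, Ddit4l and Calcoco2 were called higher, and Duxf3 did not pass. Any link of Dppa2 to these genes was not tested.

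Of 25 measured repressors 2 rose, 3 fell and 20 did not pass. Mga, the scaffold of the Polycomb complex PRC1.6, fell to 8.03, 8.14 and 8.09 in vitamin C cells, against 8.75, 8.86 and 8.88 in untreated cells (-0.74 ± 0.07 SE, limma adjusted p = 0.000942). The vitamin C arrays were lower by a wide margin. L3mbtl2, another subunit of that complex, fell by 0.31 (adjusted p = 0.0236, and 0.0565 to 0.0776 without vitamin C replicate 1, 2 or 3 or untreated replicate 2 or 3, and 0.0515 over all probe sets), whereas Max, the partner of Mga, rose by 0.35 (adjusted p = 0.0147, and 0.0527 without untreated replicate 2). Their partners Pcgf6 (0.15) and E2f6 (-0.15) did not pass. Lin28a, an RNA-binding protein, fell by 0.52 (adjusted p = 0.0151, and 0.0515 and 0.0529 without vitamin C replicate 3 or untreated replicate 3). Zfp42, also called Rex1, rose by 0.30 (adjusted p = 0.0214, and 0.0556 to 0.0688 without any 1 array other than untreated replicate 3). The chromatin repressors Kdm1a (0.18, adjusted p = 0.0931), Setdb1 (0.16, adjusted p = 0.106), Trim28 (0.04) and Rybp (-0.19, adjusted p = 0.0870) did not pass. Their 95% intervals, which are not adjusted for the number of genes, ran from 0.04 to 0.33 for Kdm1a and from 0.03 to 0.29 for Setdb1. The interval of Rybp ran from -0.33 to -0.05, and that of Trim28, from -0.10 to 0.17, held 0.

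The genes whose values over the 6 arrays ran most like those of the brightest member of a family were Adipor2, Adgrl1 and Ndufa4l2 for AF067061 (Pearson's r from 0.998 to 0.999). For Tdpoz2 they were A630012P03Rik, Trafd1 and Chrna4 (0.979 to 0.995), for Usp17lb 2310011J03Rik, Osr2 and Tril (0.997 to 0.998), and for Tmem92 Mrps35, Prkaa1 and Dis3l2 (0.994 to 0.998). With 2 groups of 3 arrays a gene that differs clearly between the groups tends to give a high r. Pearson's r takes no account of the size of a difference. Mrps35 differed by -0.06, where Tmem92 differed by -1.01, and Ndufa4l2 by -3.64, where AF067061 differed by -0.86. For AF067061 819 genes had an r above 0.95, against 39 for Tdpoz2.

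Markers of other cell types also moved, against 13.2% of all genes called (5.75% higher and 7.40% lower). Among 10 genes that mark fibroblasts, 8 rose, none fell and 2 did not pass, and their summed linear signal was 774 to 814 in vitamin C cells and 462 to 494 in untreated cells. Of 8 primitive endoderm markers 3 rose and 5 did not pass (532 to 555, against 448 to 470). Of 8 trophectoderm markers 1 rose, 2 fell and 5 did not pass (841 to 862, against 933 to 980). The fibroblast markers Acta2, of smooth muscle actin, and Dcn, of the matrix protein decorin, rose by 1.83 and 1.06 on the log2 scale (limma adjusted p = 0.000810 for each), and 3 of the 10 had an untreated mean under the lower quartile. The part of these cell types in the results above was not tested.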

How the data were processed

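RNA of 3 vitamin C and 3 untreated cultures was measured on one-colour arrays. Per the submitters' processing notes the values were made with RMA. The values as deposited are log2 signals, a scale inferred from their range, with no measure of background. The platform annotation gave 1 symbol for 21789 of 35557 probe sets. Of these 21698 matched RefSeq's gene table by gene ID, and 0 symbols changed. Titles gave each sample its group. The groups were compared over 19938 genes with limma 3.58.1 under R 4.3.3 (lmFit and eBayes, no covariate), with Benjamini-Hochberg adjustment over all genes and a threshold of 0.05, which gave the adjusted p of single genes. Probe sets with several symbols were tested in a fit over all 35557. The fit was tested on simulated data. Promoters were aligned with Biopython 1.88, and figures drawn with matplotlib 3.10.9. The number of arrays limits the precision. The p-values set the group difference against the spread between these cultures, which limma estimates partly from all genes fitted.

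The 10 genes and both gene lists were chosen with earlier results of these data known. The text names the 10 genes and their other probe sets, every called member of both lists, up to 4 more of each by size of difference, and, for the brightest gene of the Tcstv, Tdpoz and Usp17l families and for Tmem92, the 3 genes with the most similar values. Other genes named were chosen after their values were seen. Settings changed one at a time were the spread model, the replicate block, centring, quantile normalization, removal of dim genes, the choice among a gene's probe sets, array weights, the threshold and single arrays left out. Those for probe sets with several symbols were chosen after seeing the data.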

Additional observations from a re-analysis of the deposited data

How the results depend on the processing

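The differences of the 10 genes kept their sign in all 118 recomputed values, 117 of them moving by less than the spread between replicates. The exception was Tdpoz2, at 0.07 with the mean of its probe sets. Some of the 118 values could not move. Testing all probe sets or removing dim genes leaves a gene's own difference unchanged. So does the mean of probe sets for the 9 genes with 1 probe set of their own. No setting used the dimmer probe set of Tdpoz2 alone, whose difference was -0.10. With 1 array left out, genes called numbered 663 to 733 higher and 820 to 988 lower, the 10 genes had 4 to 6 calls, the other 2-cell-stage genes 4 to 5, the regulators 3 to 5 and the shared probe sets 5 to 6 of 11. These fits have fewer arrays. The trended and robust spread model called 1731 genes higher and 2420 lower and 10 regulators. At an adjusted p under 0.01, 405 genes were higher and 496 lower, with 2 of the 10 genes and 2 regulators called. The labels state no pairing, so the numbers were not taken as pairs. Correlations of deviations were 0.05, 0.01 and -0.02 for same-numbered arrays, within the range of different-numbered ones (-0.07 to 0.05). With the replicate block 763 genes were higher and 960 lower, and 2 of the shared probe sets were called, with an adjusted p of 0.0529 to 0.0545 for the other Zscan4 and Gm4340 probe sets, while the 10 genes had 6 calls, the other 2-cell-stage genes 5, without Usp17la (0.107), and the regulators 4, without Zfp42 (0.0559) and L3mbtl2 (0.0507). The filter on dim genes removed 2 of the 10 genes, Tdpoz1 and Tdpoz3, whose low signal limits what their differences show. The cause of these shifts was not tested.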
